A study of Mus musculus with 26 samples.

Results

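The 10 genes described here encode subunits of voltage-gated calcium channels, followed in a culture in which mouse embryonic stem (ES) cells become spinal motor neurons. They were taken by symbol from a table of RNA levels for 37450 genes, and all 10 were found: Cacna1a, Cacna1b, Cacna1c, Cacna1d, Cacna1e, Cacna1g, Cacna1h, Cacna2d1, Cacna2d2 and Cacnb3. The series holds 26 samples, most of which map transcription factors or chromatin and are not used here. RNA depleted of ribosomal RNA was sequenced in 4 libraries, 1 for each of days 0, 4, 5 and 6, so no value below has a replicate error and no difference could be tested. The day 0 library was made from untreated cells of the HBG3 line, labelled ES cells. The day 4 library was made from HBG3 cells labelled motor neuron progenitors, which had received retinoic acid at 1 uM and the Hedgehog pathway agonist SAG at 0.25 uM on day 2. The day 5 and day 6 libraries came from another line, iCre, and are labelled postmitotic motor neurons. Both had received the same retinoic acid and SAG, and then 5 uM DAPT, which blocks Notch signalling by inhibiting gamma-secretase, on day 4 for the day 5 library and on days 4 and 5 for the day 6 library. In another field the labels give Ainv15 as the cells of every sample. The step from day 4 to day 5 therefore joins a change of day, of cell line and of DAPT treatment, which cannot be told apart.

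Voltage-gated calcium channels open when the membrane is depolarised and let calcium into the cell. Each channel is built around a pore-forming alpha1 subunit, and most also carry a beta subunit inside the membrane and an alpha2delta subunit outside it, both of which raise the number of channels at the cell surface. Pore subunits fall into the Cav2 family (P/Q-, N- and R-type channels, which trigger transmitter release), the Cav1 family (L-type, which pass calcium signals to the nucleus) and the Cav3 family (T-type, which open near the resting potential and work without an obligatory auxiliary subunit). At the mature neuromuscular junction of mammals, release from motor neuron terminals depends mainly on P/Q-type channels, while N-type channels contribute in immature terminals.

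Promoter sequences show how differently these genes begin, and are printed for the genes that contrast most in the RNA: Cacna2d1 and Cacna1b, which stood farthest above their day 4 level on day 5 on the log2 scale used below, Cacna1e, which had the lowest level on day 0, and both annotated starts of Cacna1d, which stayed lowest on day 6. RefSeq promoters of build GRCm38.p6 were at hand for 7 of the 10 genes, with 11 starts among them (Cacna1a, Cacna1g and Cacna1h had no entry). Each sequence below is the 250 bases before a start, read 5′ to 3′ on the gene's strand, with every match to a searched motif in capitals.
Cacna2d1, chr5:15934441-15934690, plus strand: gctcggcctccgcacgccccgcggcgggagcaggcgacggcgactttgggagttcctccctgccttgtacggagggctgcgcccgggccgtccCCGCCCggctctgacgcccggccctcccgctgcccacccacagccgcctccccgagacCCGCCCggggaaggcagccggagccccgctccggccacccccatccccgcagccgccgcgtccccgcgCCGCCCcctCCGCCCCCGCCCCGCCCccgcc
Cacna1b, chr2:24763153-24763402, minus strand: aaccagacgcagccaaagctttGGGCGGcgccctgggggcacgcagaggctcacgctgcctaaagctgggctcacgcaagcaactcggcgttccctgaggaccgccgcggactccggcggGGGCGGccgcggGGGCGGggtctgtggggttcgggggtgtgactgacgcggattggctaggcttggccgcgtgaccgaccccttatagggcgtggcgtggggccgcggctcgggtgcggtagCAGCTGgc
Cacna1e, chr1:154725921-154726170, minus strand: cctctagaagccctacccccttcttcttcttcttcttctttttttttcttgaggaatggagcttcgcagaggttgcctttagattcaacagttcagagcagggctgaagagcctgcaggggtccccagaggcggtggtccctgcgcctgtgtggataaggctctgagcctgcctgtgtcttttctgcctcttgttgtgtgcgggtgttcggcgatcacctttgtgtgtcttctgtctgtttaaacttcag
Cacna1d, GC-rich start, chr14:30353487-30353736, minus strand: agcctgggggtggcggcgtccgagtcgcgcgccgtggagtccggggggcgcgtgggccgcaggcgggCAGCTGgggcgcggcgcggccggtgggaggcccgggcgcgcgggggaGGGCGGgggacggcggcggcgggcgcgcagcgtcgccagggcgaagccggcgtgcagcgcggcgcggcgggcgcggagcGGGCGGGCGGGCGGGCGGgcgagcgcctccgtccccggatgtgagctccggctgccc
Cacna1d, AT-rich start, chr14:30491157-30491406, minus strand: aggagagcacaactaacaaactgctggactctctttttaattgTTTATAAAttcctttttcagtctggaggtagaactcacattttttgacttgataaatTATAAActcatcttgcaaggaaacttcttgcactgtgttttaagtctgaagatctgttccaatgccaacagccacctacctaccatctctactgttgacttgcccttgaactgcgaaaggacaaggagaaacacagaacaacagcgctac

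The Cacna2d1 window was 82.4% G and C and held 6 matches to GGGCGG, the core of the GC box bound by Sp1 and its relatives. The Cacna1b window was 72% G and C, with 3 GGGCGG matches and 1 match to CAGCTG, an E-box. No searched motif was found in the Cacna1e window, which was 52% G and C, close to the median of 52.4% over all 32851 promoters in the table. The starts of Cacna1d differed most: 1 was 86.4% G and C with 5 GGGCGG matches and 1 CAGCTG match. The other was 39.6% G and C with 3 matches to TATAAA, the letters of the TATA box. The stretch TTTATAAA gave overlapping matches, 1 on each strand. All 3 matches lay nearer the far end of the window than the start. Whether any of them acts as a TATA box was not tested.

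Over all 11 windows, GGGCGG was found in 6, each belonging to a different gene (Cacna1b, Cacna1c, Cacna1d, Cacna2d1, Cacna2d2 and Cacnb3), while 32.7% of all promoters hold it. Those 6 windows were 70.4% to 86.4% G and C, above the 90th percentile of all promoters, 69.2%. How often other promoters as rich in G and C hold GGGCGG was not tested. CAGATG, an E-box used by proneural factors, was found in 3 windows of 2 genes (Cacna1c and Cacnb3) and in 14.4% of all promoters. CAGCTG was found in 2 windows and in 13.0% of all promoters, and TATAAA in 1 window and in 12.4%. Motifs were searched on both strands, so GGGCGG also appears as its reverse complement. None of the 11 windows held ATCGAT or ATTGAT (Onecut cores), TAATTA (a homeodomain core), or TCAGCACC and GGACAGCG, the left and right parts of the site of the repressor REST. Those letters are found in 0.728%, 6.72%, 4.84%, 1.32% and 0.992% of all promoters, and their absence says only that they are not in these 250 bases. The 10 genes lie on 10 different chromosomes.

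Levels are given as FPKM, fragments scaled by gene length and by library size, so that genes of different length can be set side by side. A difference between days is one of log2(FPKM + 1), which understates the change of low genes. It is called higher or lower where it reached 1, that is 2-fold, in a gene at 1 FPKM or more in either library, and such a gene is called measured. The labelled stages were checked against marker genes. All 5 ES cell markers were at 1 FPKM or more on day 0 and none of them later. The 5 progenitor markers summed to 245.97 FPKM on day 4, against 43.5 FPKM on day 5 and 10.1 FPKM on day 6. All 5 of them were still at 1 FPKM or more on day 5, and 1 on day 6. Motor neuron markers at 1 FPKM or more numbered 0, 3, 5 and 6 of 6 on the 4 days, and their sum on day 6 was 293.7 FPKM. Prph, at 132.1 FPKM, and Isl1, at 116.5 FPKM, made most of that sum. From day 5 to day 6, 2 of the 6 were called higher and 1 lower. The lower one was Lhx3, at 24.1 FPKM on day 5 and 3.90 FPKM on day 6, a difference of -2.36. Of 9 interneuron markers, 2 reached 1 FPKM on days 5 and 6, with sums of 5.41 and 5.67 FPKM over the list. Lhx1 was at 0.269 FPKM on day 4, 2.21 FPKM on day 5 and 1.11 FPKM on day 6 and was called higher from day 4 to day 5, with a difference of 1.34. Sim1, a marker of V3 interneurons, was at 0.529 FPKM on day 5 and 3.24 FPKM on day 6 and was called higher in that step, with 1.47. Pou4f1 was at 2.03 FPKM on day 5 and 0.694 FPKM on day 6, and Evx1 was listed at 0 on day 6. Of 7 glial markers, 1 reached 1 FPKM on these days, and Mbp made 11.5 of their summed 12.6 FPKM on day 5. No muscle or endothelial and blood marker reached 1 FPKM on day 5 or 6. The part of non-neuronal or interneuron RNA in the calcium channel levels was not tested.

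Among the Cav2 pore subunits, those of N-type and R-type channels went from below 1 FPKM on days 0 and 4 to several FPKM on day 6, while the P/Q-type subunit was present from the start. Cacna1a (ENSMUSG00000034656), the P/Q-type pore, had 4.82 FPKM on day 0, 3.15 FPKM on day 4, 5.51 FPKM on day 5 and 6.06 FPKM on day 6. All 4 libraries lie within a narrow band, and no step was called: the differences were -0.49, 0.65 and 0.12. Cacna1b, the N-type pore, had 0.209 FPKM on day 0, 0.297 FPKM on day 4, 4.78 FPKM on day 5 and 7.72 FPKM on day 6. The ES cell and progenitor libraries are low and both postmitotic libraries are high. From day 4 to day 5 the difference of Cacna1b was 2.16, a 16.1-fold ratio in FPKM, and 2.45% of the measured genes had a larger difference upward. From day 5 to day 6 it was 0.59, which was not called.

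Cacna1e, the R-type pore, had 0.003 FPKM on day 0, 0.0646 FPKM on day 4, 1.998 FPKM on day 5 and 6.86 FPKM on day 6. Each library was higher than the one before, and both late steps were called. The difference was 1.49 from day 4 to day 5, with 5.56% of the measured genes above it, and 1.39 from day 5 to day 6, with 3.09% above it. Cacna1e thus ended within 1.13-fold of Cacna1a, although it had the lowest level of the 10 genes in the ES cell library. In bulk RNA such a difference can come from more cells that express a gene or from more RNA per cell, and these cannot be told apart.

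The Cav3 pore subunits, which form T-type channels, came at different stages. Cacna1g had 0.0568 FPKM on day 0, 4.62 FPKM on day 4, 3.89 FPKM on day 5 and 4.15 FPKM on day 6. It was already at its day 6 level in progenitors, where it was the most abundant of the 10 genes, ahead of Cacnb3 by 1.10-fold. Its difference from day 0 to day 4 was 2.41, with 2.42% of the measured genes above it, and the later differences were -0.20 and 0.08. Cacna1h had 0.747 FPKM on day 0, 1.27 FPKM on day 4, 5.79 FPKM on day 5 and 15.2 FPKM on day 6. Its levels climb with each library, and the postmitotic libraries hold nearly all of the gain. The differences were 0.38, 1.58 and 1.25, of which the last 2 were called, and 4.86% and 3.91% of the measured genes lay above them.

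The Cav1 pore subunits of L-type channels were the lowest of the 7 described pore genes on day 6. Cacna1c had 0.0353 FPKM on day 0, 0.4498 FPKM on day 4, 0.462 FPKM on day 5 and 2.09 FPKM on day 6. Only the day 6 library was above 1 FPKM, and the step into it was called, with a difference of 1.08 and 5.67% of the measured genes above it. Cacna1d, the other L-type pore, had 0.0132 FPKM on day 0, 0.0593 FPKM on day 4, 0.046 FPKM on day 5 and 0.296 FPKM on day 6. It was the 1 gene of the 10 that stayed below 1 FPKM in every library, so it was measured in no step.

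Of the alpha2delta subunits, Cacna2d1 reached the highest level of any of the 10 genes and Cacna2d2 stayed low. Alpha2delta proteins are anchored outside the membrane and are the targets of gabapentin and pregabalin. Cacna2d1 had 1.38 FPKM on day 0, 2.40 FPKM on day 4, 34.9 FPKM on day 5 and 20.97 FPKM on day 6. The high libraries are those of days 5 and 6, and day 6 lies below day 5. From day 4 to day 5 the difference was 3.40, a 14.6-fold ratio in FPKM, and 0.441% of the measured genes had a larger one. The difference of -0.71 from day 5 to day 6 was not called at 2-fold. Cacna2d2 had 0.1285 FPKM on day 0, 0.766 FPKM on day 4, 0.606 FPKM on day 5 and 1.63 FPKM on day 6. Day 6 alone was above 1 FPKM, and its difference from day 5 was 0.71, also not called.

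Cacnb3 encodes a beta subunit, which binds the inner side of Cav1 and Cav2 pores and brings them to the surface. It had 1.82 FPKM on day 0, 4.22 FPKM on day 4, 7.60 FPKM on day 5 and 17.1 FPKM on day 6. This is a gain in every step of about the same ratio, 2.32, 1.80 and 2.26 in FPKM. On the log2(FPKM + 1) scale the differences were 0.89, 0.72 and 1.08, so that only the last was called, with 5.69% of the measured genes above it.

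**Figure D1:**
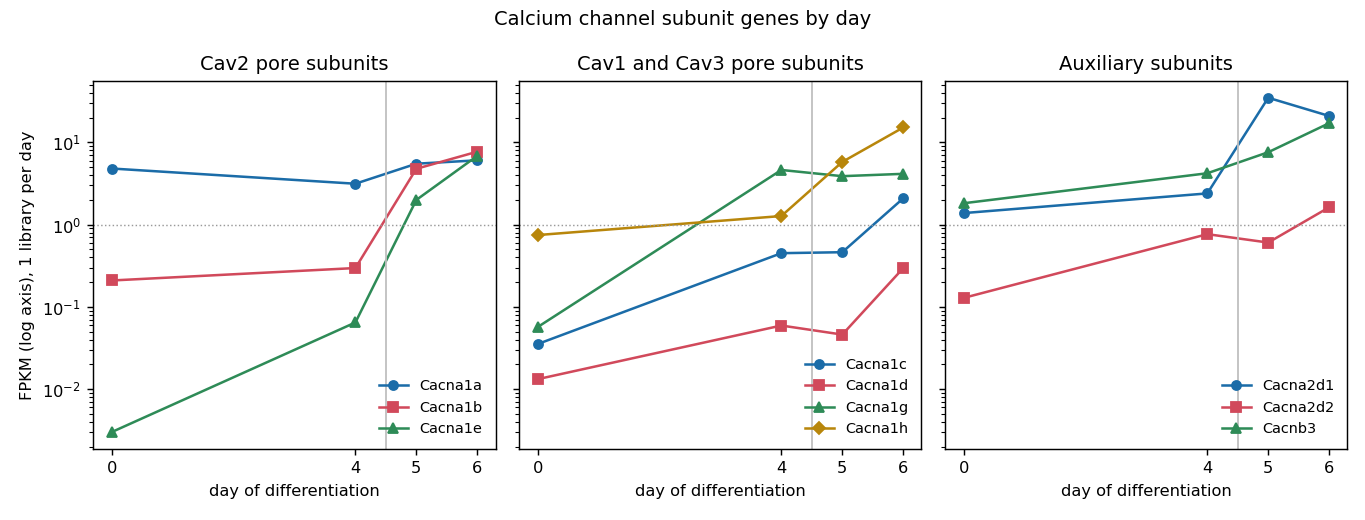
RNA level of each of the 10 calcium channel subunit genes (vertical axis, FPKM, log scale) against the day of differentiation, with 1 library per day and therefore no error bars. The dotted line is 1 FPKM and the grey vertical line marks the change from the HBG3 to the iCre line. Cacna1a stays between 3.15 and 6.06 FPKM, Cacna1g is up from day 4, and Cacna1b, Cacna1e, Cacna1h and Cacna2d1 gain most after day 4.

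Ordered by level, Cacna1a led on day 0, Cacna1g on day 4 and Cacna2d1 on days 5 and 6. On day 0 the order began with Cacna1a, Cacnb3 and Cacna2d1, the 3 genes at 1 FPKM or more. On day 4, 5 of the 10 were at 1 FPKM or more, led by Cacna1g, Cacnb3, Cacna1a, Cacna2d1 and Cacna1h. On day 5 it was 7, and Cacna2d1 stood 4.60-fold above the next gene, Cacnb3. On day 6 it was 9, in the order Cacna2d1, Cacnb3, Cacna1h, Cacna1b, Cacna1e, Cacna1a, Cacna1g, Cacna1c and Cacna2d2. Over all genes the share at 1 FPKM or more stayed between 27.1% and 28.1% on the 4 days. Summed over the 10 genes, the level went from 9.21 FPKM on day 0 to 17.3 FPKM on day 4, 65.6 FPKM on day 5 and 82.1 FPKM on day 6.

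Neighbours in these orders were often close. On day 6 the ratio to the next gene was 1.22 for Cacna2d1 over Cacnb3, 1.13 for Cacnb3 over Cacna1h, 1.12 for Cacna1b over Cacna1e and 1.13 for Cacna1e over Cacna1a. The gap of Cacna1h over Cacna1b, 1.97-fold, and that of Cacna1g over Cacna1c, 1.99-fold, were wider. With 1 library per day, whether any of these neighbours differ beyond the spread between libraries is not known. Set against all genes at 1 FPKM or more on the same day, Cacna2d1 was above 91.1% of them on day 5 and 83.9% on day 6, Cacnb3 above 79.6% on day 6 and Cacna1h above 76.7% on day 6.

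From day 0 to day 4, the step from ES cells to progenitors, 5 of the 10 genes were measured, and 1 of them, Cacna1g, was called higher. Over all 11482 measured genes, 19.3% were called higher and 11.9% lower, so 1 of 5 is near the background. From day 4 to day 5, 7 were measured and 4 (Cacna1b, Cacna1e, Cacna1h and Cacna2d1) were called higher, against 11.5% of 11339 measured genes. None was called lower, against 14.7% of all. From day 5 to day 6, 9 were measured and 4 (Cacna1c, Cacna1e, Cacna1h and Cacnb3) were called higher, against 6.57% of 11164, and none lower, against 6.19%. The median difference of the measured subunit genes was 0.51, 1.49 and 0.71 in the 3 steps, beside 0.23, -0.11 and -0.07 over all measured genes.

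These counts need a limit. Cacna1g and Cacna1h in the first step, Cacna1b and Cacna1e in the second, and Cacna1c and Cacna2d2 in the third were measured only because the later library reached 1 FPKM, which allows a difference upward and not downward. For the 8244 genes at 1 FPKM or more in every library, log2 levels were set against each gene's mean over the days. The median of these values in a library shifted by 0.26, -0.15 and -0.15 in the 3 steps. A rescaling to a common median takes this shift away. With it, higher calls made 47.2% of all calls over all genes from day 0 to day 4 in place of 61.9%, 53.4% in place of 44.0% from day 4 to day 5, and 62.0% in place of 51.5% from day 5 to day 6, while the counts of subunit genes called stayed at 1, 4 and 4 higher and 0 lower.

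**Figure D2:**
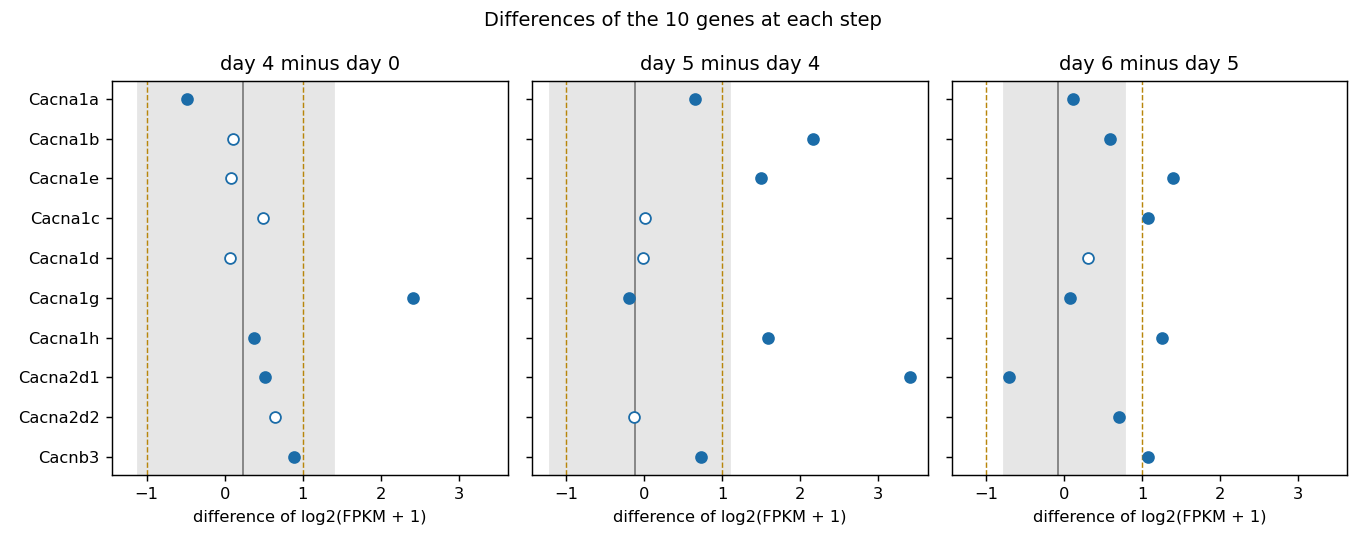
Difference of log2(FPKM + 1) for each of the 10 subunit genes in each step, with 1 library per day. Filled points are measured genes and open points are genes below 1 FPKM in both libraries; the grey band spans the 10th to 90th percentile of all measured genes, the grey line is their median, and dashed lines mark 2-fold. Cacna2d1 stands farthest right from day 4 to day 5, at 3.40, and Cacna1e farthest right from day 5 to day 6, at 1.39.

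The summed FPKM of all 10 pore genes of the genome, members or not, went from 6.01 on day 0 to 9.98 on day 4, 22.6 on day 5 and 42.6 on day 6, and its make-up shifted with it. On day 0, Cacna1a alone made 80.2% of the pore RNA. On day 4, its share was 31.5% and that of Cacna1g was 46.3%, so that Cav3 genes made 59.2% of the sum. On day 5, Cacna1h (25.7%), Cacna1a (24.4%), Cacna1b (21.2%) and Cacna1g (17.2%) had similar shares. On day 6, Cacna1h made 35.7%, Cacna1b 18.1%, Cacna1e 16.1%, Cacna1a 14.2% and Cacna1g 9.75%. By family, the day 6 sum was 48.5% Cav2, 45.5% Cav3 and 6.06% Cav1. The P/Q-type gene thus went from most of the pore RNA to 14.2% of it, while its own level was 4.82 FPKM on day 0 and 6.06 FPKM on day 6. Its day 6 share was below those of the N-type and R-type genes. Cacna1e stood only 1.13-fold above Cacna1a in that 1 library, so their order is not certain.

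Auxiliary genes shifted too. Cacna2d1 made 90.9%, 71.0%, 96.3% and 87.6% of the alpha2delta sum on the 4 days, which itself was 1.52, 3.38, 36.3 and 23.9 FPKM. Cacnb3 was the largest part of the beta sum on every day, at 63.2%, 47.7%, 66.6% and 55.4%. Cacnb2 reached 39.9% of it on day 4 and had 3.10% on day 5. The beta sum was 2.88, 8.83, 11.4 and 30.95 FPKM, highest on day 6, while the alpha2delta sum was highest on day 5.

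**Figure D3:**
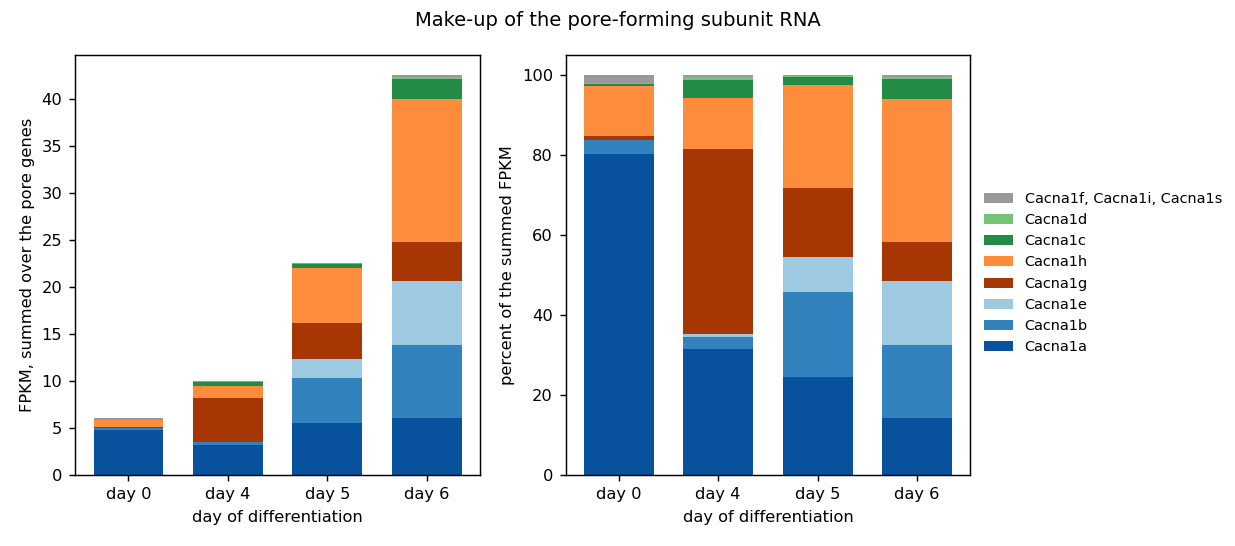
Make-up of the calcium channel pore RNA by day, as stacked bars in FPKM and as percent of the day's sum, with 1 library per day. The sum goes from 6.01 FPKM on day 0 to 42.6 FPKM on day 6, and the share of Cacna1a from 80.2% to 14.2%.

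The genome holds 16 further genes with calcium channel subunit names, including the gamma family (Cacng1 to Cacng8), to which none of the 10 genes belongs. All 16 were in the table. At 1 FPKM or more were 0, 4, 3 and 7 of them on the 4 days. Among those measured, 3 of 4 were called higher from day 0 to day 4, 0 of 4 from day 4 to day 5 and 3 of 7 from day 5 to day 6, and 1 was called lower, from day 4 to day 5. Beside these stand 19.3%, 11.5% and 6.57% of all measured genes called higher, and 14.7% called lower from day 4 to day 5. None of the 16 was at 1 FPKM on day 0, so those measured in the first step could be called higher and not lower. The same holds in the last step for Cacnb2, Cacnb4, Cacna2d3 and Cacng5, measured only because day 6 reached 1 FPKM. In the second step Cacnb2 could be called lower and not higher. With the libraries rescaled to a common median, 2 of 4, 2 of 4 and 3 of 7 were called higher. Cacnb2, a beta subunit, had 0.147, 3.52, 0.3535 and 1.52 FPKM on days 0, 4, 5 and 6, a peak in progenitors: its difference was 1.98 upward in the first step and -1.74 in the second, the 1 lower call. Cacng4, a gamma subunit that is better known as an auxiliary of AMPA receptors, had 0.0797, 2.01, 4.84 and 12.2 FPKM and made 70.03% of the gamma sum on day 6. The difference of Cacng4 from day 4 to day 5, 0.96, was called after rescaling to a common median and also with a pseudocount of 0.1 FPKM. That from day 5 to day 6 was 1.17.

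Cacnb4 had 0.173, 0.0342, 0.567 and 3.74 FPKM, with a difference of 1.60 from day 5 to day 6. Cacnb1, known from skeletal muscle but also present in neurons, had 0.740, 1.06, 2.89 and 8.54 FPKM, with 1.29 in the same step. With Cacnb3, this makes 3 beta genes called higher from day 5 to day 6, while the remaining beta gene, Cacnb2, was not called, with 0.90. Over all measured genes, 6.57% were called higher in this step. Cacnb4 was measured only because day 6 reached 1 FPKM, which allows a difference upward and not downward.

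**Figure D4:**
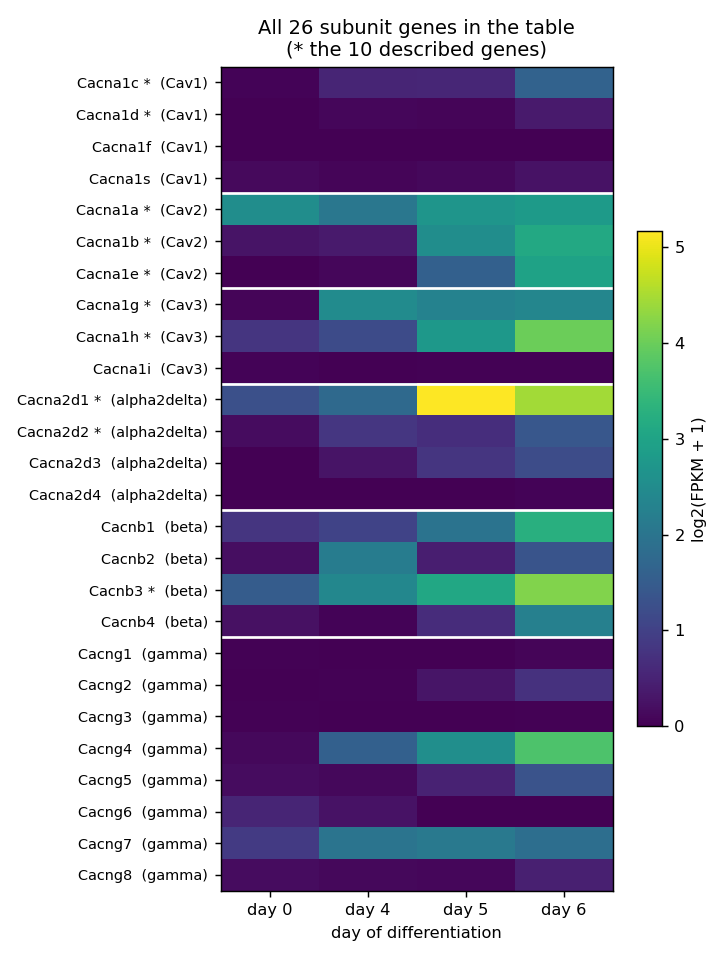
RNA level, as log2(FPKM + 1), of all 26 calcium channel subunit genes (rows, the 10 described genes marked with a star) on the 4 days (columns, 1 library each). The brightest cell, the highest level, is Cacna2d1 on day 5, and 7 of the 16 further genes reach 1 FPKM on day 6.

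How alike the 10 genes were over the 4 days was measured as the distance between their log2(FPKM + 1) values after each gene's own mean was subtracted, which is a description over 4 libraries. The nearest pair was Cacna1e and Cacna1h, R-type and T-type, at 0.282. Cacna1c and Cacna2d2, both above 1 FPKM only on day 6, were at 0.381, and Cacna1b was nearest to Cacna1h, at 0.518. Cacna1a and Cacna1d, at 0.509, share only that they varied little on this scale. Cacna1d lay below 1 FPKM in every library, where the scale shows little of any change. The farthest pair was Cacna1d and Cacna2d1, at 3.23.

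The same distance was used to name the genes nearest to the 3 subunits that were highest on day 6, among 12618 genes at 1 FPKM or more in any library. Nearest to Cacna2d1 were Slc10a4, at 0.177, Cadm1, at 0.393, and Pcdhb16, at 0.403. Slc10a4, a transporter-like protein of synaptic vesicles in cholinergic and other neurons, had 0.0132, 0.455, 13.6 and 9.53 FPKM, which is the same order of days as Cacna2d1. Cadm1, an adhesion molecule of synapses, had 12.3, 19.1, 148.4 and 117.9 FPKM. Nearest to Cacna1h were Syt1, at 0.0834, Ntf3, at 0.0846, and Cend1, at 0.0902. Syt1 encodes synaptotagmin, the calcium sensor of transmitter release, and had 0.0256, 0.387, 2.84 and 8.73 FPKM. Ntf3, the neurotrophin-3 gene, had 0.0143, 0.372, 3.28 and 8.78 FPKM. Nearest to Cacnb3 were Pisd-ps1, at 0.140, Adcy2, at 0.153, and Vps37d, at 0.163. Adcy2, an adenylyl cyclase, had 0.135, 1.26, 2.87 and 7.41 FPKM.

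The surroundings of the channels were described with lists of genes that bind them, regulate them or handle the calcium they admit. Presynaptic partners of the channels, such as scaffolds and release proteins of the active zone, were 18 genes. Of those measured, 2 of 7, 5 of 15 and 7 of 18 were called higher in the 3 steps and none lower, with medians of 0.55, 0.91 and 0.77. The shares over all measured genes were 19.3%, 11.5% and 6.57% higher and 11.9%, 14.7% and 6.19% lower. Several genes called higher from day 4 to day 5 lay below 1 FPKM on day 4. Such genes, in this list and those below, could be called higher and not lower. Unc13a, which primes vesicles, had 0.622, 1.37, 11.6 and 19.3 FPKM, with a difference of 2.41 from day 4 to day 5. Snap25, a SNARE protein that binds N-type and P/Q-type channels, had 0.1315, 0.995, 7.10 and 19.2 FPKM, with 2.02 from day 4 to day 5 and 1.32 from day 5 to day 6. All 18 were at 1 FPKM or more in the day 5 or day 6 library.

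Channel regulators were 17 genes, of which 4 of 8, 6 of 11 and 4 of 11 measured were called higher and none lower, with medians of 0.66, 1.5 and 0.82, beside 19.3%, 11.5% and 6.57% of all measured genes. Over all measured genes, 11.9%, 14.7% and 6.19% were called lower. In the first step 2 of the 8 regulators were called higher after rescaling to a common median. Akap6, an anchor for protein kinase A, had 0.038, 0.788, 20.1 and 48.8 FPKM, and its 3.56 from day 4 to day 5 was larger than that of any of the 10 subunits. Crmp1, of a family whose member Crmp2 (Dpysl2) binds N-type channels, had 2.34, 6.75, 76.4 and 129.5 FPKM, with 3.32 from day 4 to day 5. Calm3, a calmodulin gene, had 55.7, 56.6, 101.5 and 240.8 FPKM, with 1.24 from day 5 to day 6. Gnao1, a subunit of a G protein through which many receptors inhibit N-type and P/Q-type channels, was called higher in every step, at 0.240, 1.78, 7.89 and 22.3 FPKM.

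Genes of calcium release from stores and of store-operated entry, were 11 in all. Of 6 measured in each step, 0, 0 and 1 were called higher and 2, 0 and 1 lower, with medians of -0.42, -0.08 and 0.36. All measured genes had 19.3%, 11.5% and 6.57% higher and 11.9%, 14.7% and 6.19% lower, and counts this small cannot be set apart from those shares. The -0.08 turned to 0.02 with the libraries rescaled to a common median. Itpr1, the inositol trisphosphate receptor, had 9.66, 2.75, 2.15 and 0.310 FPKM and was called lower in the first and last step, with -1.51 and -1.26. Ryr3, a ryanodine receptor, had 0.541, 0.0724, 0.161 and 1.51 FPKM, with 1.11 from day 5 to day 6. Orai1 and Orai2, the pores of store-operated entry, moved apart from day 4 to day 5, but neither was called on the log2(FPKM + 1) scale. Orai1 had 2.30 and 0.771 FPKM, a difference of -0.90, and Orai2 had 0.448 and 1.38 FPKM, a difference of 0.72. That scale understates the change of genes this low.

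Genes that clear calcium from the cytosol, the pumps, exchangers and the mitochondrial uniporter, were 14. Of those measured, 0 of 8, 5 of 9 and 3 of 11 were called higher and none lower, with medians of 0.29, 1.10 and 0.53. All measured genes had 19.3%, 11.5% and 6.57% higher and 11.9%, 14.7% and 6.19% lower. Slc8a1, a sodium-calcium exchanger, had 0.196, 1.11, 15.2 and 50.1 FPKM, with 2.94 from day 4 to day 5 and 1.65 from day 5 to day 6. Atp2b2, a plasma membrane calcium pump, had 0.190, 0.122, 2.26 and 12.6 FPKM, with 1.54 and 2.06. On day 6 the level of Slc8a1 was above that of each of the 10 channel subunits.

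Among 11 calcium buffers and sensors, 3 of 5, 2 of 5 and 1 of 6 measured were called higher and 0, 1 and 0 lower, with medians of 1.51, -0.63 and 0.73. With 5 or 6 measured genes, these counts say little beside the shares of all measured genes. Those were 19.3%, 11.5% and 6.57% called higher and 11.9%, 14.7% and 6.19% called lower. Ncs1, a sensor that regulates calcium channels in nerve terminals, had 1.35, 5.71, 19.6 and 39.2 FPKM, with 1.51, 1.62 and 0.96 in the 3 steps. Ncald had 0.133, 3.81, 1.11 and 2.15 FPKM, a progenitor peak like that of Cacnb2, with -1.19 from day 4 to day 5. Hpcal4 passed 1 FPKM only on day 6, at 1.78 FPKM, with a difference of 1.37.

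Of 6 calcium-activated channels, none was measured in the first step, and Kcnn1 was the 1 measured in the second. Kcnn1, a small-conductance potassium channel of the kind that shapes the afterhyperpolarisation of motor neurons, had 0.293, 0.432, 9.05 and 9.01 FPKM. Its difference was 2.81 from day 4 to day 5 and -0.01 from day 5 to day 6. Kcnma1, the large-conductance channel, had 0.388 FPKM on day 5 and 1.74 FPKM on day 6. Its difference on the log2(FPKM + 1) scale was 0.98, just short of a call.

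The 19 genes of calcium-dependent signalling to the nucleus had 3 of 16, 3 of 15 and 1 of 16 measured called higher and 1 lower in each step, with medians of 0.60, 0.41 and 0.07. Over all measured genes, 19.3%, 11.5% and 6.57% were called higher, so the first and last count of higher genes are near the background. Called lower were 11.9%, 14.7% and 6.19% of all measured genes, and lower counts this small cannot be set apart from those shares. Ppp3ca, a catalytic subunit of calcineurin, had 4.64, 4.30, 14.4 and 26.4 FPKM, with 1.54 from day 4 to day 5. Nfatc3, a transcription factor that calcineurin activates, had 3.81, 14.2, 6.37 and 1.58 FPKM, highest in progenitors. The differences of Nfatc3 were 1.65, -1.04 and -1.51, and the -1.04 was no longer called after rescaling to a common median. Camk2b, a calcium-calmodulin kinase subunit of neurons, had 2.81, 0.770, 1.35 and 7.93 FPKM, with -1.11 in the first step and 1.92 in the last.

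**Figure D5:**
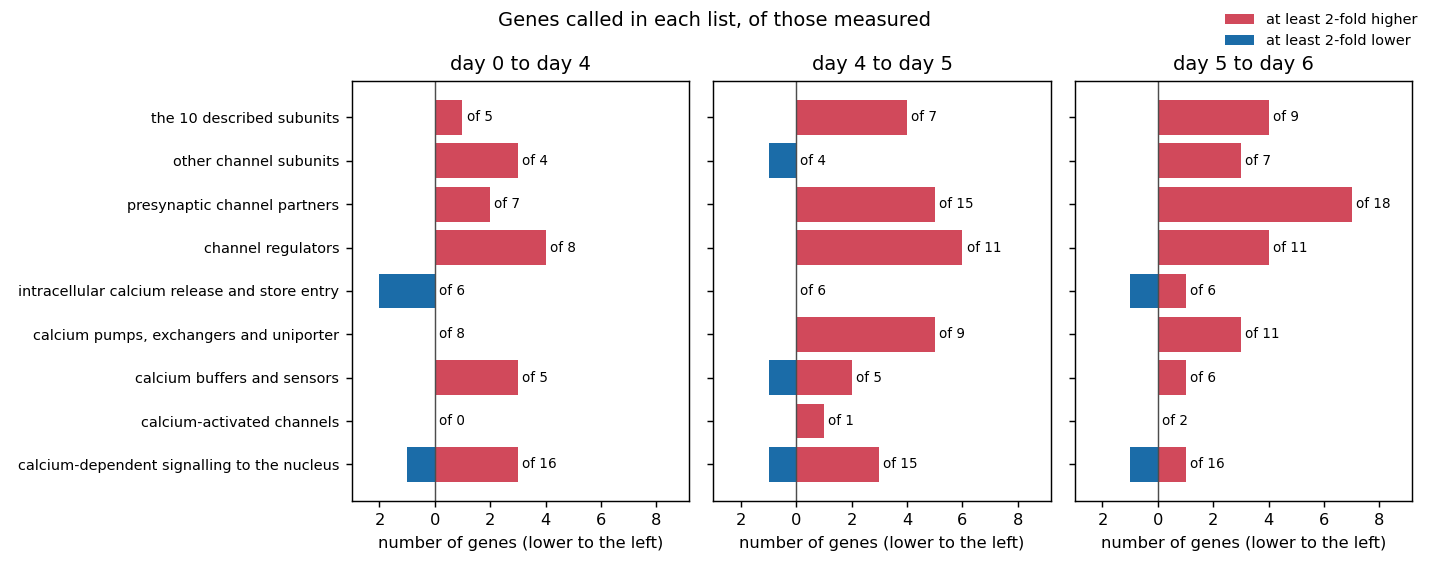
Number of genes called at least 2-fold higher (red, to the right) or lower (blue, to the left) in each list and step, with the number measured beside each bar and 1 library per day. The 10 described subunits have 1, 4 and 4 genes to the right and none to the left, and the list of calcium release and store entry has 2 to the left from day 0 to day 4.

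Some of the 10 genes share sequence with a neighbour, and the sources used here do not say whether reads were counted by strand. By RefSeq names, Cacna1c overlaps Dcp1b, which had 0.837, 3.56, 2.58 and 2.55 FPKM on days 0, 4, 5 and 6, above Cacna1c in every library. Cacna1d overlaps Dcp1a, at 7.39, 6.89, 6.76 and 4.99 FPKM, and Chdh, at 0.0202 FPKM or less. Cacna1h overlaps Tpsg1, a mast cell protease gene listed at 0 in all libraries. The low values of Cacna1c and Cacna1d could hold reads of these neighbours, and how far they do was not tested. No protein-coding neighbour overlaps the other 7 genes.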

How the data were processed

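The deposited RNA table holds FPKM made by the authors, 1 column per day for days 0, 4, 5 and 6, each matched to its sample by the column's name. Not given in the sources used here are the program behind the FPKM, its use of strand and the number of fragments per library. Per the submitters' processing notes, tools of the series were STAR, MACS, HOMER 4.7.2 and Bowtie 0.12.7 and the build was mm9, with no roles stated. A name table held 32798 of the 37450 gene IDs, all 10 subunit genes included. From the lowest values (under 0.03 FPKM), 1 fragment was worth 1.04 times as much on day 4 as on day 5 and 1.32 times as much on day 5 as on day 6, in 21.7% of 254 and of 314 low genes. For day 0 over day 4 the most frequent ratio, 0.5, held 8.55% of 269 low genes and is less clear.

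Levels were compared as log2(FPKM + 1), a pseudocount of 1 FPKM, for genes that reached 1 FPKM in the earlier or the later library, and a 2-fold difference was called. With 1 library per day there was no test. All counts were made over the whole table. The calling step was tested on simulated data, with changes well above 2-fold put into genes well above the filter. That test does not cover differences near the threshold or in low genes. The alternatives were a pseudocount of 0.1 FPKM, no filter or one at 3 FPKM, libraries rescaled to a common median ratio or upper quartile, and a 1.5-fold threshold.

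All 10 genes are named. For the 3 highest on day 6, the 3 genes nearest in pattern are named. From each further list up to 4 genes are named, the 2 with the largest differences from day 4 to day 5 and the 2 from day 5 to day 6, except 1 that is not reported here. Members and lists were chosen with earlier results of these data known. Mcu, Micu2 and Micu3 were matched by gene ID. Promoters and gene overlaps come from RefSeq tables of GRCm38.p6, whose coordinates were not joined with mm9 files. Peak lists were not used here, since no gene annotation of their build was at hand. Python 3.11.15, numpy 2.4.6, pandas 2.3.3 and matplotlib 3.10.9 were used.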

Additional observations from a re-analysis of the deposited data

How the results depend on the processing

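No paired analysis was possible because each day had 1 RNA library. The replicate numbers shared in the labels belong to chromatin samples not used here. Of 121 values of single subunit genes recomputed under the alternatives, 113 kept their call, 8 did not, and no called difference changed sign. A changed filter alone leaves a difference as it was, and neither a smaller pseudocount nor a lower threshold can change its sign. Differences of genes that fell below the 3 FPKM filter were not among the 121 values. With that filter, Cacna1e from day 4 to day 5 and Cacna1c from day 5 to day 6 were no longer called. From day 0 to day 4, 2 subunit genes in place of 1 were called higher with a pseudocount of 0.1 FPKM and also with a 1.5-fold threshold, Cacnb3 being added. From day 5 to day 6, 1 in place of 0 was called lower with a 1.5-fold threshold, Cacna2d1. The counts of higher subunit genes from day 4 to day 5 and from day 5 to day 6 lay between 3 and 6 under every alternative run. A pseudocount of 0.1 FPKM raised the calls over all genes from day 5 to day 6 from 734 to 1127 higher and from 691 to 1077 lower, and a 1.5-fold threshold raised them to 1591 and 1786. Under that threshold the first step went from 2219 to 3951 higher and from 1366 to 2293 lower, and the second from 1308 to 2421 and from 1668 to 3205. For the presynaptic partners from day 4 to day 5, 5 higher calls became 8 with a common median and 11 with a pseudocount of 0.1 FPKM. In the first step their 2 became 1 and 4, and the regulators' 4 became 2 with a common median. The further subunits had 2 higher in place of 0 from day 4 to day 5 under both settings, and 5 in place of 3 from day 5 to day 6 with the pseudocount. From day 5 to day 6, calcium buffers and sensors had 3 higher with a common median and 2 with the pseudocount in place of 1, and nuclear signalling had 2 and 3 in place of 1. With the pseudocount, nuclear signalling went from 3 to 6 higher and from 1 to 3 lower in the first step, and pumps and exchangers from 0 to 2 higher. Other list counts that moved by over 1.5 times under these 2 settings moved by 1 gene. The alternatives planned for peaks at the genes were not run, since those comparisons were not made. Depth per library is unknown, so levels near 0 carry no interval.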
